A study of Mus musculus with 24 samples.

Results

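The comparison described here is the change in retinal RNA between postnatal day 12 and postnatal day 7 in mouse pups kept in high oxygen. Its members were chosen by array title, as the 3 arrays of day 12 in hyperoxia and the 3 arrays of day 7 in hyperoxia, 6 of the 24 arrays of the series. All mice were C57Bl/6, and each array measured total RNA from retina. The day 12 hyperoxia group had spent 120 hours in high oxygen and the day 7 hyperoxia group 12 hours, so age and length of exposure change together and cannot be told apart in it. The same ages in room air, 3 arrays at day 12 and 3 at day 7, show the change between these ages without exposure and share no array with the hyperoxia comparison. The remaining 12 arrays hold days 8 and 10 in both conditions, where the hyperoxia groups had 24 and 72 hours of exposure. They enter through the normalisation, the filter on low probe sets, the choice of probe set for each gene and the shared estimate of the spread. The courses over age also use them. The sources used here do not give the oxygen concentration, the number of animals behind an array or the time of day of collection. Nothing states that the arrays of a group came from separate animals, so the p-values below reflect just the scatter among these samples, part or all of which may be technical.

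High oxygen during the days when the superficial vessels of the mouse retina spread is a standard way to stop and prune that growth, because oxygen lowers the activity of hypoxia-inducible factor (HIF) and with it the output of vascular endothelial growth factor. In the same days the mouse retina ends its last cell divisions at the periphery, rods and cones build outer segments and synapses, bipolar cells connect, and Müller glia take on their adult proteins, shortly before the eyes open. Day 12 against day 7 in hyperoxia therefore sets a developmental window beside a lengthening exposure.

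At day 12 the hyperoxic retina had higher levels than at day 7 of a number of transcripts of phototransduction, bipolar cells, Müller glia, the circadian clock and glycolysis, and lower levels of many transcripts of dividing and newly born cells. Of 15838 probe sets tested, 1992 (12.6%) passed at an adjusted p under 0.05 in limma's test, 943 higher (5.95%) and 1049 lower (6.62%) at day 12, carrying the symbols of 720 and 801 genes. At least a 2-fold difference was seen for 213 of the higher and 180 of the lower probe sets, and at least a 4-fold difference for 31 and 10. All values below are log2 of the normalised array intensity, and all differences are day 12 minus day 7 on that scale with the standard error of the fit. The median difference over all probe sets tested was -0.025. Markers of pigment epithelium moved with the comparison: the mean log2 level of 10 such genes was 10.20, 10.15 and 11.38 at day 12 against 8.93, 9.94 and 9.18 at day 7. With that score as a covariate, a fit added after seeing the data, 790 probe sets passed, 365 higher and 425 lower. The 6 arrays compared, fitted alone, gave 598, 338 higher and 260 lower. Both totals are out of the same 15838, so the list counts in these fits are to be read beside them. The counts in the gene groups below are given under these 2 fits, as the pigment fit and the 6-array fit, where they shrink by over 1.5 times or a call is lost. In whole retina, fewer cells of a type and less RNA per cell cannot be told apart.

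Of 18 measured rod phototransduction genes, 12 were higher at day 12, none was lower, and the median difference was 0.71; over the brightest probe set of each of 9266 genes, 6.85% were higher, 7.28% were lower and the median was -0.032. In the pigment fit 8 of the 18 rose, and in the 6-array fit 9. Guca1b, which encodes an activator of the rod guanylate cyclase, was at 13.62, 14.13 and 13.84 at day 12 against 9.85, 10.61 and 9.99 at day 7. The difference of 3.71 ± 0.31 (adjusted p = 4.03e-07) was far larger than the spread within either group, although a dimmer probe set of the same gene differed by 0.28 and did not pass. Gnat1, the alpha subunit of rod transducin, had 14.79, 14.76 and 14.82 at day 12 against 11.56, 12.86 and 12.02 at day 7, a difference of 2.64 ± 0.30 (adjusted p = 1.02e-05). Slc24a1, the exchanger that clears calcium from the rod outer segment, had 13.74, 13.88 and 13.80 at day 12 against 11.01, 11.73 and 10.82 at day 7 and rose by 2.62 ± 0.27 (adjusted p = 2.64e-06). For all 3 genes every day 12 array lay above every day 7 array. Cnga1, a subunit of the rod cGMP-gated channel, rose by 1.26 ± 0.15. The 6 rod genes that did not pass had differences between 0.05 (Pdc) and 1.39 (Gucy2e), and they include Sag (0.20) and Pde6b (0.28), arrestin and a phosphodiesterase subunit.

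Cone and outer segment genes moved less uniformly. Opn1mw, the middle wavelength cone opsin, was at 12.05, 12.18 and 12.34 at day 12 against 8.31, 9.67 and 9.25 at day 7, without overlap, a difference of 3.11 ± 0.28 (adjusted p = 6.29e-07). Of 8 cone genes 3 rose, among them cone transducin Gnat2 (0.57 ± 0.10) and Pde6h (0.45 ± 0.13), while Cngb3, a subunit of the cone channel, fell by 0.71 on the log2 scale (SE 0.12, adjusted p = 0.000477). In the pigment fit 2 of the 8 rose, and in the 6-array fit 1. Of 17 genes of outer segment structure and the visual cycle 8 rose and none fell, with a median difference of 0.39, against 5 in the pigment fit and 4 in the 6-array fit. Rdh12, a retinol dehydrogenase of photoreceptors, rose by 1.05 ± 0.13, and Aipl1, a chaperone for the phosphodiesterase, by 1.04 ± 0.15. Nxnl1 rose by 0.84 ± 0.15, and Abca4, which moves retinoids across the disc membrane, by 0.82 ± 0.12. The other probe set of Nxnl1 stood at 0.07 and did not pass.

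The transcription factors that set photoreceptor fate split. Esrrb, an orphan nuclear receptor of rods, had 12.52, 12.49 and 12.51 at day 12 against 10.05, 10.62 and 10.13 at day 7 and rose by 2.24 ± 0.16 (adjusted p = 3.93e-08). Prdm1, which holds young photoreceptors back from the bipolar fate, had 11.43, 11.34 and 11.20 at day 12 against 12.65, 12.59 and 12.92 at day 7, a difference of -1.40 ± 0.14 (adjusted p = 2.15e-06), and Otx2, which starts photoreceptor and bipolar fates, differed by -1.03 ± 0.19. Neither gene's groups overlapped. The rod factors Nrl (0.09) and Crx (0.12) did not pass, and the median over 12 such factors was -0.12, with 2 higher and 2 lower. The pigment fit left 1 higher and 1 lower.

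The promoters of phototransduction genes are known targets of the homeobox factor CRX, whose core site reads TAATCC, so the windows that hold that site are shown for 4 genes that rose. RefSeq gives a promoter entry for 11 of the 15 rod and cone genes that rose, and TAATCC stood on either strand in the 250 bases before the annotated start in 6 of the 11 (Cnga1, Cngb1, Gnat2, Gnb5, Gngt1, Guca1a), against 7.21% of the promoters of 27025 mouse genes. Each window is printed from RefSeq on GRCm38.p6, 5′ to 3′ on the strand of the gene and ending at the base before the start, with the motif or its reverse complement in capitals. A match describes the letters only. The windows are chr5:72642753-72643002 on the minus strand for Cnga1, chr6:3993758-3994007 on the plus strand for Gngt1, chr17:47400607-47400856 on the minus strand for Guca1a and chr3:108092816-108093065 on the plus strand for Gnat2.
Cnga1: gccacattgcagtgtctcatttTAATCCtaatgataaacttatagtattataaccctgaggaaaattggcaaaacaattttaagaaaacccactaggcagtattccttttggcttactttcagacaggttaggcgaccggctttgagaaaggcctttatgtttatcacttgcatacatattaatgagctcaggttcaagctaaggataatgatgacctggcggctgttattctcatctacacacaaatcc
Gngt1: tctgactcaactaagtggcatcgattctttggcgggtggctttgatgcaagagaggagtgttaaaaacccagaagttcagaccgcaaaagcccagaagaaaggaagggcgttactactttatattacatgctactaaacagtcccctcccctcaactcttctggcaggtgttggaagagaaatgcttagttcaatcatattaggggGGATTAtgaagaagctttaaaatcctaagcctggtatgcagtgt
Guca1a: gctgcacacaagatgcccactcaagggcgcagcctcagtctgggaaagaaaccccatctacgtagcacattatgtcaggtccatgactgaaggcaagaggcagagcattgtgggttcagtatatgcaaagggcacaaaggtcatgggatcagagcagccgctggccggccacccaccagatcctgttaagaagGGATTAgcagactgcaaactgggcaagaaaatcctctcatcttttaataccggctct
Gnat2: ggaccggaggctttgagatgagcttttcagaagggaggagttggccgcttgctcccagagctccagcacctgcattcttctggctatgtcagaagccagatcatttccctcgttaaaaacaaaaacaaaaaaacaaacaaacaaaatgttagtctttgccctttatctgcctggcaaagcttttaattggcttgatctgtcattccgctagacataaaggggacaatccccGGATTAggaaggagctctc

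Counted from the transcription start, the first base of the match lies at -228 in Cnga1, -44 in Gngt1, -57 in Guca1a and -19 in Gnat2. The log2 differences of the genes not yet given were 0.67 for Gngt1, the gamma subunit of rod transducin, and 0.70 for Guca1a, the partner of Guca1b.

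Among genes of the next cells in the circuit some rose. Gng13, a G protein gamma subunit of ON bipolar cells, was at 11.96, 11.79 and 11.96 at day 12 against 9.37, 9.81 and 9.30 at day 7, a difference of 2.41 ± 0.16 (adjusted p = 3.93e-08). Of 14 bipolar genes 5 rose, with Car8 (1.65 ± 0.21), the calcium-binding protein gene Cabp5 (1.34 ± 0.19) and Pcp2 (1.25 ± 0.19) next in order, and 1 fell, the transcription factor gene Vsx1 at -0.60, which did not pass in the 6-array fit; the median was 0.23. In the pigment fit 4 of the 14 bipolar genes rose. Of 15 genes of ribbon synapses and vesicle release 6 rose and none fell, with a median of 0.30, against 3 in the pigment fit and 4 in the 6-array fit. Cabp4, which tunes the photoreceptor calcium channel, rose by 2.06 ± 0.21, the complexin Cplx4 by 1.31 ± 0.15, the active zone gene Rims2 by 1.00 ± 0.12 and Cacna1f, the channel itself, by 0.69 ± 0.13.

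Inner retinal neurons showed fewer changes. Of 13 amacrine genes 3 rose and none fell (median 0.04), namely Gad1, a GABA-synthesising enzyme (0.68 ± 0.11), Calb2 (0.54 ± 0.14) and C1ql1 (0.54 ± 0.12). Of 5 horizontal cell genes 1 rose, the calcium buffer Calb1, by 1.27 ± 0.17. Of 12 ganglion cell genes 2 rose, Thy1 (0.71 ± 0.14) and the neurofilament gene Nefl (0.45 ± 0.11). Of 13 neurotransmitter receptor genes 2 rose, the GABA receptor subunits Gabrr2, by 2.20 ± 0.24, and Gabrr1, by 0.64 ± 0.13. None of the members of these lists fell. In the pigment fit and in the 6-array fit alike, 1 amacrine, 1 horizontal, 0 ganglion cell and 1 receptor genes rose.

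Kcnj14, an inwardly rectifying potassium channel gene, was at 10.10, 10.23 and 10.76 at day 12 against 7.64, 8.25 and 7.68 at day 7, a difference of 2.51 ± 0.30 (adjusted p = 1.68e-05). In room air it stood at 10.94, 12.01 and 11.80 at day 12 against 7.27, 8.12 and 7.43 at day 7, a difference of 3.98 ± 0.30. The hyperoxia minus room air value of that change was -1.47 ± 0.43 (unadjusted p = 0.00277, adjusted p = 0.642), which did not pass.

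Several Müller glial genes rose beside the neurons. Aqp4, the water channel of glial endfeet, was at 10.72, 10.89 and 10.83 at day 12 against 8.18, 8.45 and 8.69 at day 7, a difference of 2.37 ± 0.20 (adjusted p = 3.81e-07) with no overlap. Of 16 Müller genes 9 rose, 2 fell and the median was 0.52, against 6 that rose in both of the other fits and 0 that fell in the 6-array fit. Glul, glutamine synthetase, rose by 1.36 ± 0.16, Clu, clusterin, by 1.65 ± 0.19 and the carbonic anhydrase gene Car14 by 1.19 ± 0.17, while Dbi (-0.60) and Crym (-0.46) fell. Of 7 genes of reactive gliosis 3 rose, the oncostatin M receptor Osmr (0.97 ± 0.21), Cd44 (0.82 ± 0.22) and A2m (0.47 ± 0.14); in the pigment fit none of the 7 passed, and in the 6-array fit 1 did.

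The largest rise of a named gene was that of Drd4, the dopamine D4 receptor that photoreceptors carry under clock control. It was at 14.01, 13.40 and 14.02 at day 12 against 8.53, 9.42 and 8.13 at day 7, a difference of 5.11 ± 0.44 (34.6-fold, adjusted p = 4.17e-07), with 3.05 on its other probe set, and its group means in hyperoxia at days 7, 8, 10 and 12 ran 8.70, 9.41, 12.02 and 13.81. Of 16 clock genes and clock-driven genes 9 rose and none fell, with a median of 0.54, against 5 in the pigment fit and 6 in the 6-array fit. Dbp, a clock output transcription factor, rose by 1.45 ± 0.23, and its relative Hlf by 0.92 ± 0.13. Bhlhe40, a repressor in the clock, was at 9.61, 9.35 and 9.86 at day 12 and at the floor of 7.10 on all 3 arrays of day 7, so it was at least 5.70-fold higher (adjusted p = 0.000322). The core genes Arntl (-0.03) and Per2 (0.31) did not pass. From a common start 12 and 120 hours end at different times of day, and the part of clock time in these values was not tested.

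Further large rises had no common list. Pdzph1 was at 10.70, 10.59 and 10.40 at day 12 against 7.41, 7.40 and 7.17 at day 7, a difference of 3.24 ± 0.19 with the lowest adjusted p of the comparison (4.89e-09). Il33, an alarmin cytokine held in nuclei, was at 10.74, 10.19 and 10.91 at day 12 against 7.82, 8.13 and 7.93 at day 7 and rose by 2.66 ± 0.19. Neither gene's groups overlapped. Dio2, the deiodinase that makes active thyroid hormone, rose by 2.46 ± 0.25, with a second probe set at 0.18. Lyve1, a hyaluronan receptor of lymphatic vessels and some macrophages, rose by 2.45 ± 0.22, and Ttr, the thyroid hormone carrier made by pigment epithelium, by 2.51 ± 0.41.

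Genes of cell division were among the falls. Cdk1, the kinase that starts mitosis, was at 7.10, 7.10 and 7.59 at day 12, 2 of the 3 at the floor, against 9.59, 9.44 and 9.15 at day 7, a difference of -2.13 ± 0.27 (adjusted p = 3.02e-05). Of 14 mitosis genes 8 fell and none rose, with a median difference of -1.01. In the pigment fit and in the 6-array fit alike, 6 of the 14 fell. Ube2c, a ubiquitin-conjugating enzyme of mitotic exit, was at the floor on all 3 arrays of day 12 and at 8.82, 8.68 and 8.56 at day 7, so it was at least 3.01-fold lower. Top2a, a topoisomerase, fell by 1.53 and Nusap1, a spindle protein, by 1.07 on the log2 scale. Among the 15 largest falls were also Pbk, a mitotic kinase (-1.70 ± 0.19), the cyclin D1 gene Ccnd1 (-1.71 ± 0.21), the chromatin gene Hmgb2 (-1.77 ± 0.39) and Myb (-1.75 ± 0.18).

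DNA replication genes were also among the falls. Of 16 measured, 9 fell and none rose, and the median was -0.64. Mcm7, a subunit of the replicative helicase, was at 10.73, 10.99 and 10.80 at day 12 against 12.36, 12.19 and 12.28 at day 7, a difference of -1.43 ± 0.14 (adjusted p = 2.27e-06), and all 4 of its probe sets fell. Mcm5, another helicase subunit, had 7.71, 7.88 and 7.69 at day 12 against 9.11, 9.10 and 8.96 at day 7, a difference of -1.30 ± 0.16. The groups of both genes were fully apart. Rrm2, which supplies deoxynucleotides, fell by 1.47 and Cdt1, which loads the helicase, by 0.77. On its other probe set Cdt1 differed by -0.27 and did not pass. Pcna, the polymerase clamp, differed by -0.10 and did not pass. The count of replication genes that fell was 5 in the pigment fit and 4 in the 6-array fit.

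Replication genes are known targets of E2F factors, so the promoters of the helicase genes that hold an E2F site are shown, with TTTCCCGC or TTTGGCGC in capitals. Of the 9 replication genes that fell, 8 have a RefSeq entry and 3 hold one of these sites on either strand in the 250 bases, against 1.51% of the promoters of 27025 genes. The windows are chr8:75109259-75109508 on the plus strand for Mcm5, chr1:128359706-128359955 on the minus strand for Mcm6 and chr5:138171884-138172133 on the minus strand for Mcm7.
Mcm5: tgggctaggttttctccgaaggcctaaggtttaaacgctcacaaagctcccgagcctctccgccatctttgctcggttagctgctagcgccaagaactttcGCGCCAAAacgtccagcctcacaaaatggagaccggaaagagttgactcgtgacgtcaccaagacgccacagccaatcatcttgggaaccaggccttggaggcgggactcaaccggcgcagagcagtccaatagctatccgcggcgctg
Mcm6: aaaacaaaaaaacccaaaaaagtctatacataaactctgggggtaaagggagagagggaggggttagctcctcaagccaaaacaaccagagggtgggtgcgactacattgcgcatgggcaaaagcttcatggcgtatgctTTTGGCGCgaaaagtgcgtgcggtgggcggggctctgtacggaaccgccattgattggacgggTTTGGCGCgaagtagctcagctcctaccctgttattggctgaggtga
Mcm7: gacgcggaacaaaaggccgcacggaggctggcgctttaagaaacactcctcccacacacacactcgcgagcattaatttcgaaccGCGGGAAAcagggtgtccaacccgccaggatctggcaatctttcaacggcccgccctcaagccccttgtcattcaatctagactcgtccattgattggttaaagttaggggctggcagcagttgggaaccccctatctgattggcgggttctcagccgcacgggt

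The matches start at -149 in Mcm5, at -110 and -47 in Mcm6 and at -165 in Mcm7. Mcm6 differed by -1.45 on the log2 scale.

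Genes of progenitors and young neurons fell over the same interval. Of 16 progenitor genes 11 fell and none rose, with a median of -0.82, against 7 in the pigment fit and 8 in the 6-array fit. Neurog2, a proneural transcription factor, was at 8.39, 7.30 and 7.98 at day 12 against 10.09, 9.66 and 9.82 at day 7, a difference of -1.97 ± 0.24 (adjusted p = 1.89e-05). Fabp7, a fatty acid binding protein of radial glia and progenitors, was at 11.29, 10.87 and 11.20 at day 12 against 13.51, 12.91 and 13.26 at day 7, a difference of -2.11 ± 0.19 (adjusted p = 7.79e-07). In both genes the lowest day 7 array exceeded the highest day 12 array. The Notch target Hes5 (-1.64 ± 0.20), Hes6 (-1.34 ± 0.17) and Sfrp2, an inhibitor of Wnt signals (-1.05 ± 0.12), fell too. Of 15 genes of axon growth and young neurons 11 fell and none rose, with a median of -0.46, among them the microtubule genes Dcx (-0.98 ± 0.17) and Stmn1 (-0.60 ± 0.11) and the imprinted gene Nnat (-0.90 ± 0.09). Of the 4 probe sets of Dcx 2 fell, and another stood at 0.55 without passing, so its direction depends on the probe set. In the pigment fit 4 of the 15 genes fell, and in the 6-array fit 2. Sox4, a factor of newly born neurons, fell by 0.71 on its brightest probe set and by 1.68 on the one with the lowest p.

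Other large falls were scattered in function. Nol12, a nucleolar protein gene, was at 7.10, 7.10 and 7.13 at day 12 against 9.52, 10.17 and 9.14 at day 7, a difference of -2.50 ± 0.47 (adjusted p = 0.00126). Slc27a2, a fatty acid transporter and acyl-CoA synthetase, was at the floor on all 3 arrays of day 12 and at 9.30, 8.96 and 9.25 at day 7, so it was at least 4.20-fold lower (adjusted p = 1.81e-05). Both genes thus reached the floor of the scale at day 12, where differences are understated. Pax7 (-1.77 ± 0.22) and the phosphatase inhibitor Ppp1r14b (-1.79 ± 0.15) also fell. St8sia4, a polysialic acid synthase, differed by -1.93 ± 0.20 on one probe set and by 0.17 on another, and Serf1 by -1.67 ± 0.33 on one and by 0.77 on another, so the direction of both genes depends on the probe set. Of 15 genes of developmental cell death 3 fell and none rose, with a median of -0.18. These were the caspases Casp2 (-0.67 ± 0.10) and Casp9 (-0.62 ± 0.16) and the adaptor gene Apaf1 (-0.64 ± 0.13). Casp9 and Apaf1 each had another probe set, at -0.17 and -0.22, that did not pass. In the pigment fit 2 of the 15 fell, Casp2 and a gene that had not passed without the covariate. Casp9 and Apaf1 did not pass there. In the 6-array fit 0 of the 15 fell.

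**Figure D1:**
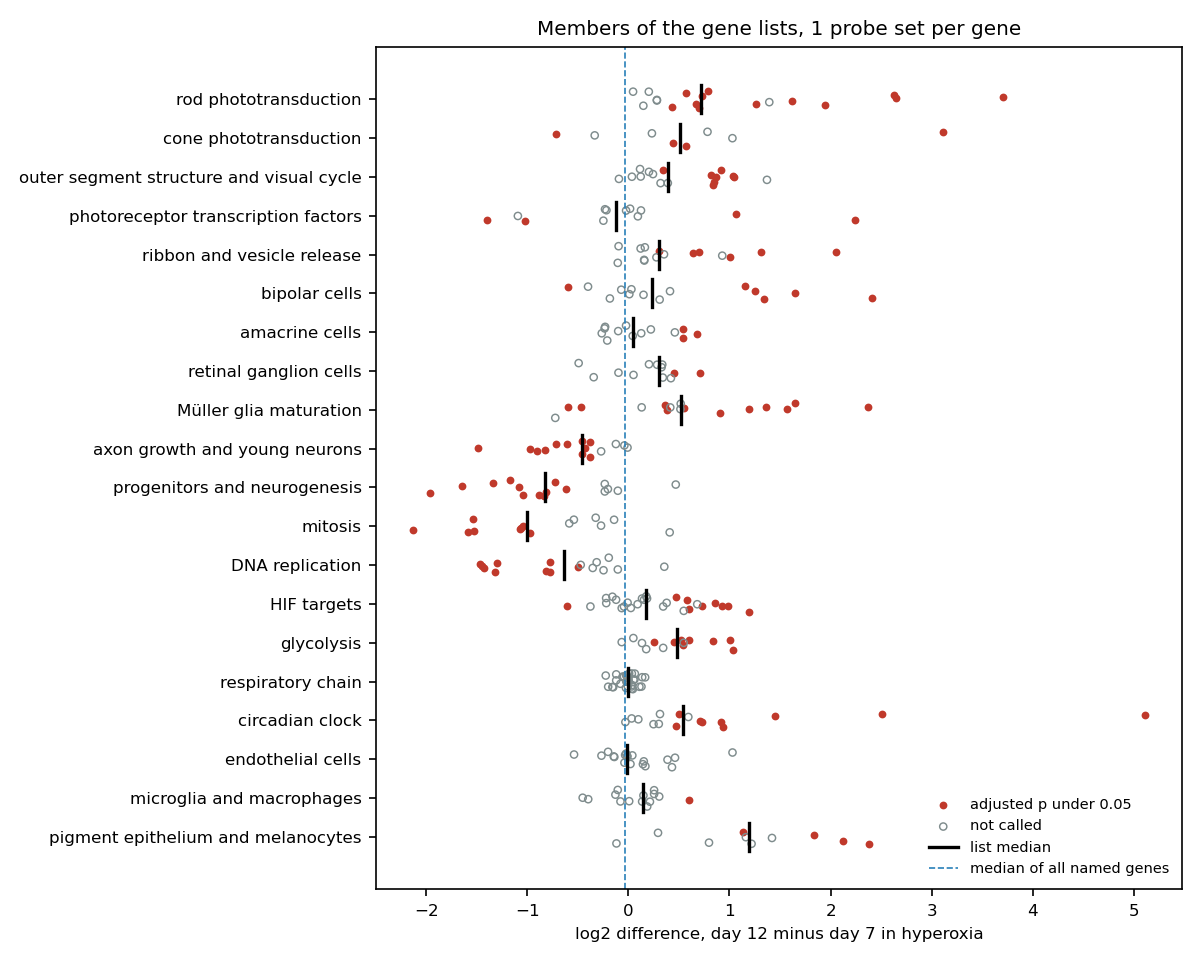
Each row is 1 gene list and each point the log2 difference of 1 gene, day 12 minus day 7 in hyperoxia, filled where it passed; black bars are list medians and the dashed line the median of all named genes. The medians of the mitosis, replication, progenitor and axon growth lists lie between -1.01 and -0.46, and that of rod genes at 0.71.

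The rise and fall were spread over the whole interval. Of the 943 probe sets that were higher at day 12, 661 (70.1%) had group means in hyperoxia that rose at every step from day 7 through days 8 and 10 to day 12, and of the 1049 lower ones 703 (67%) fell at every step, against 15.4% of the 13843 that did not pass. The comparison itself chose the first 2 sets by their end points, so these shares are a description. By day 8 the median probe set among the higher had covered 16.9% of its difference and by day 10 56.1%, and among the lower 12.8% and 52%. These medians were near those of the probe sets that did not pass, 19.5% and 54%. Mitosis genes that fell were early, with a median of 35.7% by day 8 and 82.4% by day 10, as in Cdk1, whose means at days 7, 8, 10 and 12 were 9.39, 9.03, 7.48 and 7.26. Of the 14 mitosis genes only 4 stood over 1 log2 unit above the floor of 7.10 on all 6 arrays compared. Cdk1 was at 7.16, 7.10 and 8.20 at day 10. A level at the floor cannot fall further, so these early shares may be overstated. Rod genes that rose had covered 26% and 69.9%, clock genes 12.2% and 42.5%. HIF target genes that rose were late, at -3.28% by day 8 and 35.7% by day 10, as in Vegfa, whose means at days 7, 8, 10 and 12 were 10.28, 10.00, 10.57 and 11.14.

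**Figure D2:**
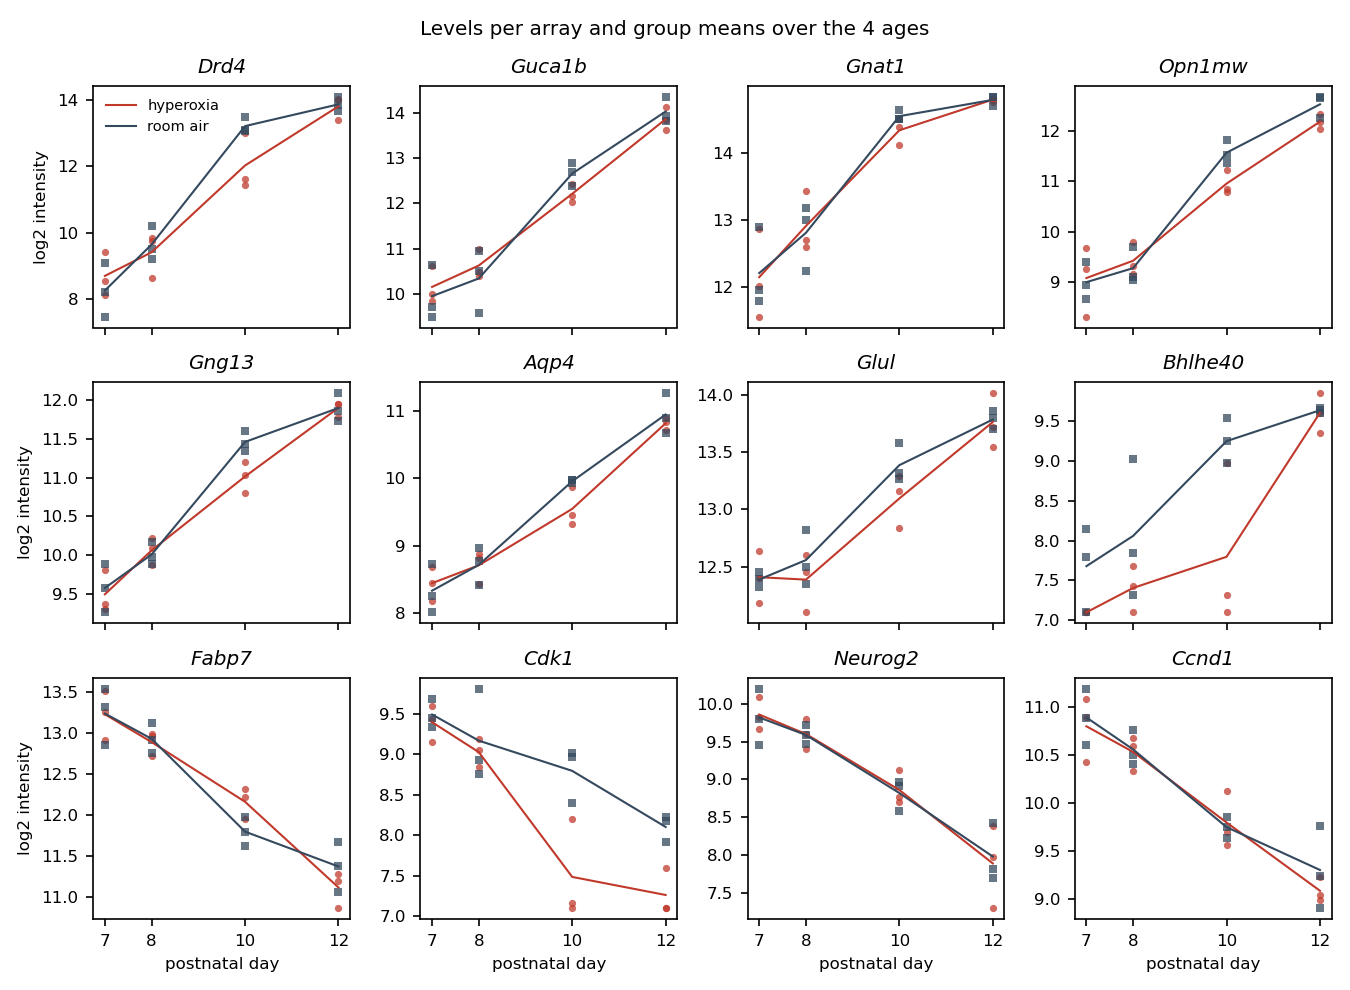
Log2 normalised intensity by postnatal day for 12 genes, with 3 arrays per age as points and lines through the group means, in hyperoxia (red) and in room air (dark blue). The upper 8 genes rise with age and the lower 4 fall; Drd4 ends at 13.81 in hyperoxia and 13.87 in room air at day 12.

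The same ages in room air gave 1959 probe sets that passed (12.4%), 1132 higher (7.15%) and 827 lower (5.22%), or 1193 without the third room air array of day 7. Passing in both conditions were 1160 probe sets, 58.2% of those in hyperoxia and 59.2% of those in room air, and all 1160 had the same direction. Of the 1992 hyperoxia probe sets, 1923 (96.5%) had the same sign in room air. Across all probe sets tested the differences in hyperoxia and in room air correlated with Pearson's r 0.673 and Spearman's rank coefficient 0.531, a description across probe sets, which are not independent. The test of the difference itself, hyperoxia minus room air, passed for 0 probe sets (0%), with 982 at an unadjusted p under 0.05 and a lowest adjusted p of 0.409. With the replicate number as a block 1 probe set passed, that of Slc16a3 (adjusted p = 0.0369). That block also covers the room air arrays, which the numbers did not pair, and no label gives a pairing. Without the first day 12 hyperoxia array 2 passed, that of Tmem214 (-1.04 ± 0.17), named after its value was seen, and 1 with no single gene symbol.

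**Figure D3:**
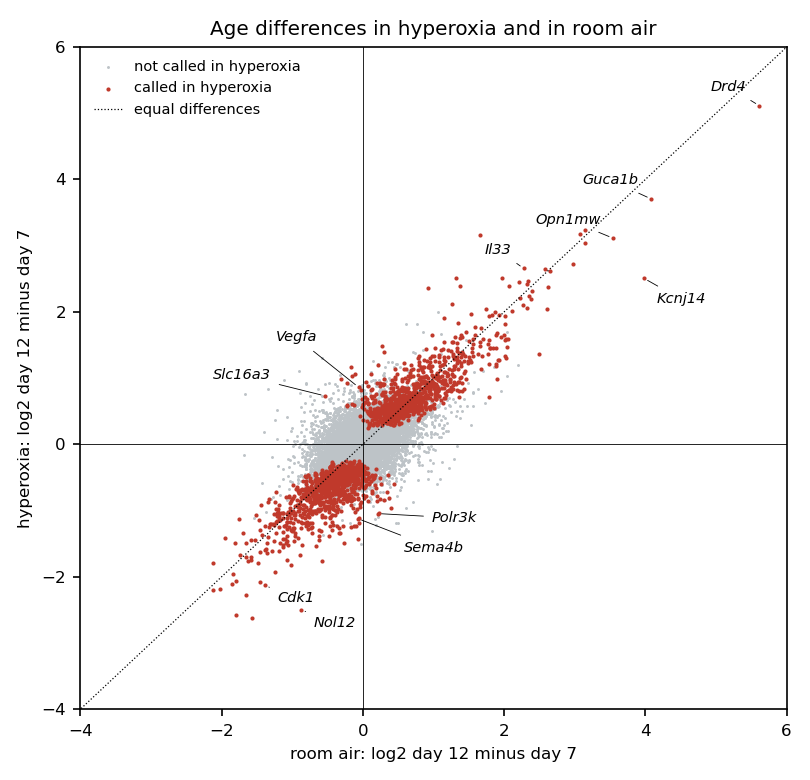
Each point is 1 probe set, with its log2 day 12 minus day 7 difference in room air on the horizontal axis and in hyperoxia on the vertical axis; those that passed in hyperoxia are red and the dotted line marks equal differences. Drd4 lies at 5.61 and 5.11 near the line, Kcnj14 at 3.98 and 2.51 below it, and Slc16a3 at -0.54 and 0.73 above 0 on one axis and below it on the other.

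Rod, glial, clock and progenitor genes showed like medians in both conditions. Rod genes had a median of 0.71 in hyperoxia and 0.68 in room air (12 and 11 higher), clock genes 0.54 and 0.60 (9 and 8 higher), Müller genes 0.52 and 0.38 (9 and 7 higher) and progenitor genes -0.82 and -0.93 (11 and 11 lower). In room air 8.56% of the brightest probe sets per gene were higher and 5.5% lower. Mitosis genes had -1.01 and -0.62 (8 and 7 lower) and replication genes -0.64 and -0.51 (9 and 6 lower). No single member of any of these lists passed the test of the difference between conditions.

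Several targets of HIF rose in hyperoxia. Of 27 measured targets 8 rose and 1 fell between day 7 and day 12 in hyperoxia (median 0.18), whereas 1 rose and 1 fell in room air (median -0.06), and 22 of the 27 had the larger value in hyperoxia, against 44.4% of the 9266 genes; none passed the test of the difference. Vegfa, the growth factor that drives retinal vessels, was at 11.24, 10.99 and 11.19 at day 12 against 10.16, 10.40 and 10.27 at day 7 in hyperoxia, a difference of 0.86 ± 0.13 (adjusted p = 0.000136). In room air Vegfa was at 11.04, 11.08 and 11.19 at day 12 against 11.30, 11.26 and 10.93 at day 7, a difference of -0.06 ± 0.13. Its 3 hyperoxia arrays of day 7 thus lay below all 9 others, and the other probe set of Vegfa differed by 1.03 in hyperoxia and -0.15 in room air. The difference between the conditions was 0.92 ± 0.18 (unadjusted p = 5.65e-05, the lowest of all probe sets, adjusted p = 0.409).

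Slc16a3, the lactate exporter MCT4, was at 9.88, 10.25 and 10.14 at day 12 against 9.24, 9.49 and 9.34 at day 7 in hyperoxia, and rose by 0.73 ± 0.18 (adjusted p = 0.0116). In room air it was at 9.66, 10.00 and 9.98 at day 12 against 10.03, 10.76 and 10.47 at day 7, a difference of -0.54 ± 0.18 (adjusted p = 0.0632). The groups did not overlap in either condition, and the difference between conditions was 1.27 ± 0.26 (unadjusted p = 9.85e-05). Over all probe sets tested, 22 lay apart upward in hyperoxia and downward in room air and 24 the other way, 0.29% in all; upward in hyperoxia alone, 11.7% of probe sets did not overlap. Ak4, a mitochondrial adenylate kinase, was at 10.12, 10.32 and 9.80 at day 12 against 8.86, 9.07 and 8.72 at day 7 in hyperoxia and rose by 1.20 ± 0.15, with 0.22 ± 0.15 in room air. Bnip3, a mitophagy receptor, rose by 0.99 ± 0.12, with 0.30 in room air, Pfkl, a phosphofructokinase, by 0.60 ± 0.11, with -0.00 in room air, and Pdk1, which shuts pyruvate out of mitochondria, by 0.58 ± 0.14, with -0.22 in room air. Egln3, an HIF prolyl hydroxylase, was the member that fell (-0.61 ± 0.19), while Slc2a1 (-0.04) and Ldha (-0.07), a glucose carrier and lactate dehydrogenase, did not pass. In the pigment fit 4 of the 27 rose and 0 fell, and in the 6-array fit 4 rose and 0 fell.

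**Figure D4:**
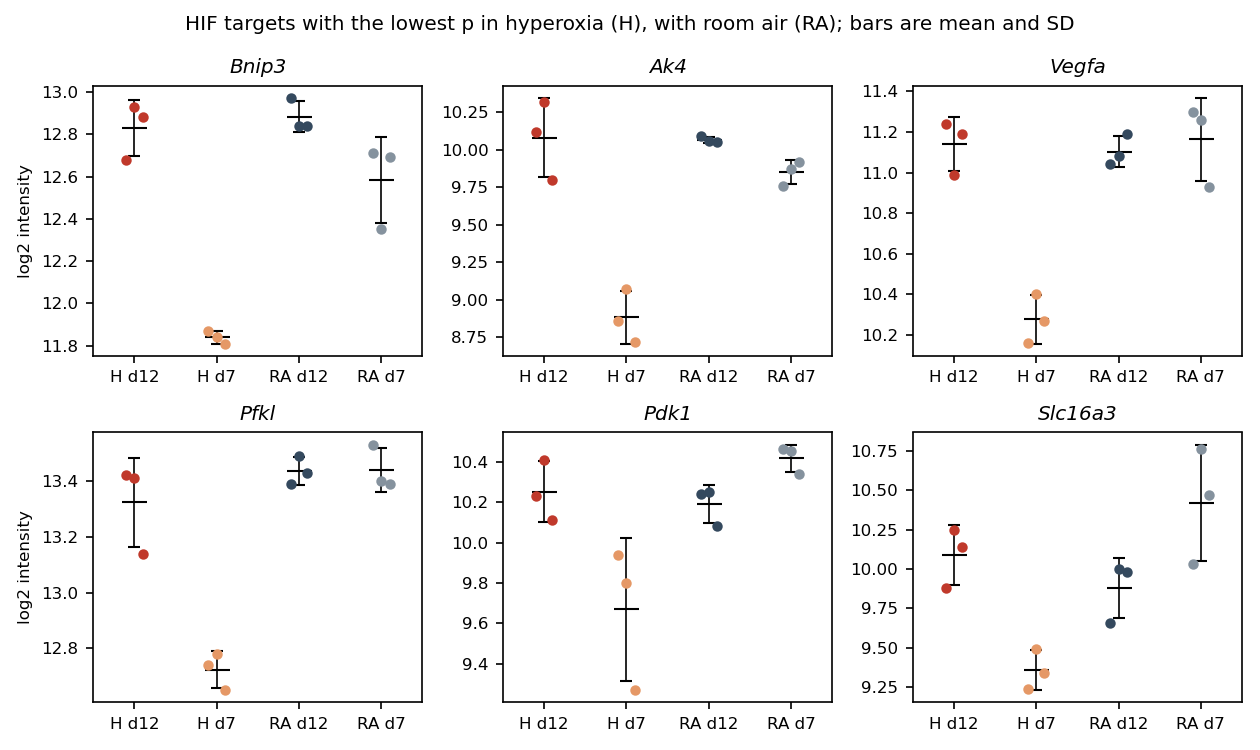
Log2 normalised intensity of HIF target genes that rose in hyperoxia, 1 panel a gene and 1 point an array, for hyperoxia day 12, hyperoxia day 7, room air day 12 and room air day 7. Bars are the mean and SD of 3 arrays, and the vertical axes do not start at 0. In all 6 panels the 3 hyperoxia arrays of day 7 sit below the 9 arrays of the other groups shown.

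HIF binds ACGTG, which stood on either strand in the 250 bases before the start of 4 of the 8 targets that rose (Ak4, Bnip3, Slc16a3, Vegfa), against 18.5% of the promoters of 27025 genes. The windows of Bnip3 and Slc16a3, both of which rose in hyperoxia, are shown with those letters in capitals. In Bnip3 the 2 strands overlap in the palindrome CACGTG, at -108, and in Slc16a3 the matches start at -27 and -14. The windows are chr7:138909507-138909756 on the minus strand for Bnip3 and chr11:120948817-120949066 on the plus strand for Slc16a3.
Bnip3: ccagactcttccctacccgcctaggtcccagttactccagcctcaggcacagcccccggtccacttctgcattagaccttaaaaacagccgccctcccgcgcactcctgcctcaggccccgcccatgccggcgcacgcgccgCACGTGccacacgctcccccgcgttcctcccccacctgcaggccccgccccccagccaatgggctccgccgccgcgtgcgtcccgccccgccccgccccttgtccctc
Slc16a3: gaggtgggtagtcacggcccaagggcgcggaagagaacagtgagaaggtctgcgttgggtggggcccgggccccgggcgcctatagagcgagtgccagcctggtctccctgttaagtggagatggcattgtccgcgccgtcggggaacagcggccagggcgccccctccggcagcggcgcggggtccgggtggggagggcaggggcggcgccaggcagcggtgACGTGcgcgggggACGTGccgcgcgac

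The glycolysis list shares genes such as Pfkl with these targets. Of 14 measured, 8 rose in hyperoxia and none fell (median 0.48), and 6 rose in room air (median 0.06). In the pigment fit 5 of the 14 rose in hyperoxia, and in the 6-array fit 3. Aldoc, an aldolase of glia and photoreceptors, rose by 1.03 ± 0.12 in hyperoxia, with 0.90 in room air, the phosphofructokinase gene Pfkp by 1.00 ± 0.14, with 0.60 in room air, and Eno2, neuronal enolase, by 0.84 ± 0.13, with 0.82 in room air. Pgam1, phosphoglycerate mutase, was at 13.58, 13.49 and 13.51 at day 12 against 13.01, 12.87 and 13.09 at day 7 in hyperoxia, without overlap, a difference of 0.54 ± 0.08 with 0.02 in room air. Of 30 respiratory chain genes none passed in either direction in hyperoxia, and the median was -0.002.

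Vessel genes gave few changes. Of 19 endothelial genes, each by its brightest probe set, none passed in hyperoxia and the median was -0.01. In room air 3 rose (Eng, Tm4sf1, Esam), with a median of 0.32. The VEGF receptor Flt1 differed by 1.03 ± 0.38 in hyperoxia (adjusted p = 0.0819), Esam by 0.46 ± 0.21 and Aplnr, the apelin receptor, by -0.54 ± 0.30. The 3 probe sets of Flt1 differed by 0.50 to 1.05 in hyperoxia, and 1 of them, not the brightest, passed. The difference between the conditions was negative for 14 of the 19 and passed for none. Of 8 tip cell genes 3 fell in hyperoxia and none rose, against 2 in the pigment fit and 1 in the 6-array fit. Angpt2, a vessel-destabilising ligand, was at 8.27, 7.10 and 8.76 at day 12 against 9.30, 9.59 and 9.12 at day 7 (-1.30 ± 0.35, adjusted p = 0.0174), with 1 day 12 array at the floor. The chemokine receptor Cxcr4 fell by 1.05 and the Notch ligand Dll4 by 0.62. Of 8 pericyte and smooth muscle genes Pdgfrb rose (0.93 ± 0.27). Of 12 basement membrane genes the laminin gene Lama5 rose (1.16 ± 0.34) and Agrn fell (-0.69 ± 0.22). Over the brightest probe set of each gene 6.85% were higher and 7.28% lower, so single calls in lists of this size lie near that share. Neither the pericyte list nor the basement membrane list had a call in the pigment fit or the 6-array fit.

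The other differences with the lowest p between the conditions concerned genes of unlike function. Sema4b, a semaphorin, was at 7.76, 7.64 and 7.61 at day 12 against 8.61, 8.95 and 8.81 at day 7 in hyperoxia, a difference of -1.12 ± 0.15 (adjusted p = 6.3e-05), with -0.08 in room air and -1.05 ± 0.22 between the conditions. Polr3k, a subunit of RNA polymerase III, differed by -1.05 ± 0.18 in hyperoxia and 0.21 in room air on 1 of its 4 probe sets, while on another it differed by -0.66 in hyperoxia and -0.65 in room air. The fifth probe set carries no single gene symbol and differed by 0.99 ± 0.19 in hyperoxia and -0.30 in room air. Thrb, the thyroid hormone receptor that cones need for the middle wavelength opsin, was at 10.32, 10.00 and 10.52 at day 12 against 9.05, 8.91 and 9.68 at day 7 in hyperoxia, a difference of 1.07 ± 0.30 (adjusted p = 0.0212), with -0.11 ± 0.30 in room air and no pass for the difference.

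Stress and immune genes were mostly below the threshold. Of 15 antioxidant genes 2 rose, the metallothioneins Mt3 (0.92 ± 0.24) and Mt1 (0.90 ± 0.22), and 1 fell, the thioredoxin reductase Txnrd1 (-0.69 ± 0.15). In the pigment fit neither metallothionein passed, and in the 6-array fit Txnrd1 did not. Of the 3 probe sets of Txnrd1 1 passed, and the smallest difference was -0.32. Of 14 microglia and macrophage genes 1 rose, the purine receptor P2ry12 (0.60 ± 0.17), and none fell. That count lies near the share of all genes that were higher, 6.85%. Of 15 cholesterol synthesis genes 2 rose, Fdft1 (0.55 ± 0.14) and Sc5d (0.43 ± 0.14), and none fell. The other probe set of Sc5d stood at -0.11, and 1 of the 3 probe sets of Fdft1 passed, the lowest at 0.08. Neither the microglia list nor the cholesterol list had a call in the pigment fit or the 6-array fit.

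Markers of neighbouring tissues bear on several of these values. The retina label was checked by counting markers that stood over 1 log2 unit above the floor on all 6 arrays: 17 of 18 rod genes, 8 of 8 cone genes, 14 of 14 bipolar genes, 13 of 13 amacrine genes, 15 of 16 Müller genes and 11 of 12 ganglion cell genes did so. Of 10 pigment epithelium and melanocyte genes 4 rose, with a median of 1.19: Ttr, Rpe65 (2.12 ± 0.45), Rgr (1.84 ± 0.44) and Rdh5 (1.13 ± 0.27). In the 6-array fit 2 of the 10 rose. In the pigment fit, whose covariate is their own mean, 1 rose and 1 fell. Lens genes did not pass (0 of 14) but varied widely between arrays. Their mean log2 level was 8.05, 13.87 and 13.90 at day 12 against 11.34, 7.74 and 13.85 at day 7, and their median difference was 0.92 in hyperoxia and -0.58 in room air. Of 4 myelin genes Cnp fell (-0.83 ± 0.19), and none of 2 red cell genes or 4 skeletal muscle genes passed. Cnp passed in neither the pigment fit nor the 6-array fit. With the lens score as a covariate 1931 probe sets passed. The part of pigment epithelium in the other results was not tested beyond the covariate fits.

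Of 149 genes named by the rule, 58 have several probe sets, which differed in sign in 6 and partly passed in 18. Among the 18 were also Cnp, Pde6h and Stmn1. Some of the genes named above passed narrowly. Leaving out 1 of the 6 arrays at a time ended the pass of 18 of them at least once, at adjusted p of 0.0504 to 0.172. Without the first array of day 12 these were A2m, Calb2, Cd44, Fdft1, Lama5, Nefl, Pde6h, Sc5d and Thrb, without the second Agrn, Angpt2, Casp9, P2ry12 and Pde6h, and without the third A2m, Agrn, Cd44, Dll4, Lama5, P2ry12, Pdgfrb, Rgr, Sc5d and Thrb. Without the first array of day 7 they were A2m, Agrn, Calb2, Cd44, Lama5, Mt3, P2ry12, Pde6h, Pdgfrb, Sc5d and Thrb, without the second Agrn, Angpt2, Dll4, Lama5, Pdgfrb, Sc5d and Thrb, and without the third A2m, Agrn, Calb2, Fdft1, Lama5, Mt1, Pde6h, Pdgfrb and Sc5d. The other named genes that no longer passed in the pigment fit were Osmr, Rdh5, Rpe65, C1ql1, Thy1, Otx2, Cnp, Cacna1f, Gabrr1, Hmgb2 and Apaf1, at adjusted p between 0.0532 (Cnp) and 0.33 (Rdh5). In the 6-array fit 31 of the 106 named probe sets that had passed no longer did. Those of them not in the lists above were Dcx, Casp2, Pfkl, Gnat2, Stmn1, Pgam1, Serf1 and Txnrd1. Their adjusted p there lay between 0.0532 (Dcx) and 0.0997 (Txnrd1).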

How the data were processed

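Total RNA of mouse retina was measured on 24 one-colour oligonucleotide arrays in 8 groups of 3, grouped by array title. The authors deposited linear intensities of 22690 probe sets, 64 of them controls; their software is not given in the sources used here. The mean of each array with 2% trimmed from both ends was 1500.35 to 1500.4, so the values had been brought to 1 scale, with medians of 570.1 to 679.7. The number of arrays limits the precision.

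Intensities were taken to log2, quantile normalised and raised to a floor at the 20th percentile of the table (an intensity of 136.8), which held 0.35% of the values kept. Controls and probe sets with a mean under the 30th percentile were removed, leaving 15838. Differences near the floor are understated. Names came from the supplied platform annotation: 20380 probe sets had 1 gene symbol, 691 several and 1555 none, and only the first were named. Of these, 20351 were found by gene identifier in a RefSeq gene table, and 0 symbols were updated.

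A single limma fit (version 3.58.1, R 4.3.3) over 24 arrays gave all contrasts between group means, with Benjamini-Hochberg adjustment over all probe sets kept; the procedure was tested on simulated data. Figures used matplotlib 3.10.9 in Python 3.11.15. Named genes were the 15 largest rises and 15 largest falls in hyperoxia among probe sets that passed and whose groups did not overlap, with 1 probe set a gene (that of lowest p); from every list the 4 members or fewer of lowest p; and the 5 probe sets of lowest p for the difference between conditions. Other genes were chosen after their values were seen. Lists used the brightest probe set of each gene. The members and lists were chosen with earlier results of these data known.

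In hyperoxia the deviations of same-numbered arrays from their group means correlated at 0.371, 0.151 and 0.305 between day 12 and day 7. All were over 0.1, so the numbers were taken to pair these arrays, although the second day 12 array correlated best with the third day 7 array. The pairing rests on the values and on no label. It entered the replicate block and not the main fit. In room air they correlated at -0.24, 0.129 and -0.087 and were not paired. Alternatives were the deposited scaling, other floors and filters, robust and separate fits, a replicate block, marker scores as covariates and leaving out single arrays.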

Additional observations from a re-analysis of the deposited data

Results flagged for a closer look

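Slc16a3, the lactate exporter MCT4, differed in opposite directions between day 12 and day 7 in the conditions: in hyperoxia all 3 arrays of day 12 lay above those of day 7 (0.73 ± 0.18), and in room air all 3 lay below (-0.54 ± 0.18). The difference between the conditions was 1.27 ± 0.26 on the log2 scale, with an unadjusted p of 9.85e-05 and an adjusted p of 0.409 in limma's test over 15838 probe sets, which did not pass. Among 152 named probe sets examined, it was the one singled out in this way. It had been named for its low p in the difference between the conditions, so the opposite directions are no separate support. Over all 15838 probe sets, 22 lay apart upward in hyperoxia and downward in room air, and 24 the other way.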

How the results depend on the processing

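The count in hyperoxia (1992) was 632 with lens and pigment scores as covariates (297 higher, 335 lower), 790 with the pigment score alone (365 and 425), 598 with only the 6 arrays compared (338 and 260), and between 1399 and 1744 without single arrays. Of 106 named probe sets that passed, 76, 78 and 75 passed in the first 3 of these fits and 95 to 101 without single arrays. The room air count (1959) was 1283 with both scores, 1301 with the pigment score, 923 with only its 6 arrays and between 1193 and 1808 without single arrays. Restricting to arrays with a lens score under 10 left 1 array in each group compared and 2 residual degrees of freedom, too few for a test. There 1981 of the 1992 hyperoxia probe sets had the same direction. The hyperoxia arrays kept are among the 6 that chose these probe sets, so that match was largely fixed in advance. This setting and the single-score covariates were chosen after seeing the data. For the difference between the conditions (0), 1 passed without a filter on low probe sets (Pgam1, 0.52 ± 0.07), 1 with the replicate block (Slc16a3), and between 0 and 2 without single arrays. With the replicate block 2357 passed in hyperoxia, 106 of the 106 named probe sets among them, and the block changed no other call of these; in room air, where the numbers did not pair the arrays, 2286 passed. The deposited scaling gave 1901 in hyperoxia. None of the 106 named probe sets changed sign under the alternatives run, but with only the 6 arrays compared the higher calls outnumbered the lower, 56.5% against 47.3% higher in the fit over 24 arrays. The causes of these changes were not tested.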
